A study of Mus musculus with 18 samples.

Results

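The comparison covers 6 of the 18 RNA sequencing libraries of the series: whole lung of OVA-treated mice, 3 wild-type libraries against 3 libraries titled dGATA. They were chosen by their titles, Balbc_1 to Balbc_3 and dGATA_1 to dGATA_3. Each lung table lists 23284 gene symbols in FPKM, a fragment level scaled for transcript length and for the number of mapped fragments. Of these symbols, 13727 reached 1 FPKM in 3 or more of the 6 libraries and were tested. The labels give BALB/c as the strain of both groups, call the dGATA animals a knockout, and name OVA, in this field the short form of ovalbumin, as the treatment of all 6 lungs. The sources used here do not state age, time after OVA or whether replicates are separate animals, so each p-value reflects just the variation among these libraries, which may be technical. House dust mite is named in the design text of the series, but the labels of these lungs give OVA.

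The labels do not spell out dGATA. In this field the name is commonly used for BALB/c mice that lack a paired GATA site upstream of Gata1 and make no eosinophils, and the comparison asks which lung transcripts differ in such mice during allergic inflammation. GATA1 is a zinc finger transcription factor of erythroid, megakaryocyte, mast cell and eosinophil precursors, and it binds DNA at GATA motifs. Eosinophils enter the allergic lung along gradients of eotaxins, which act on the receptor CCR3, and carry granules with major basic protein and eosinophil peroxidase. In whole lung, fewer cells of a type and less RNA per cell cannot be told apart.

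All 6 libraries had the marks of lung. Sftpc, the surfactant protein C gene of alveolar type 2 cells, ran from 18850 to 26130 FPKM, and Scgb1a1, the club cell secretoglobin gene, took 12 to 17.9% of all FPKM. Depth relative to wild-type replicate 1, read from the most frequent ratio of low values, was 0.58 to 0.76 in the other 5 libraries. Xist, transcribed from the inactive X chromosome, ran from 31.5 to 41.1 FPKM, and the Y-linked genes Ddx3y, Eif2s3y, Kdm5d and Uty reached at most 0.0832 FPKM in any library. Rank correlations across genes were 0.975 to 0.978 among wild-type libraries, 0.925 to 0.963 among dGATA libraries and 0.941 to 0.968 between the groups. The lowest of these correlations was thus between a pair of dGATA libraries. The median SD of a gene's log2 value was 0.191 in dGATA lung and 0.093 in wild type, and 79.7% of genes had the larger SD in dGATA lung.

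Limma on log2(FPKM + 1) called 13 genes at an adjusted p under 0.05, which was 0.0947% of the genes tested. In dGATA lung 6 were higher (0.0437%) and 7 were lower (0.0510%). At an unadjusted p under 0.05 there were 939 genes, 6.84% of those tested. The 3 dGATA values lay wholly outside the 3 wild-type values for 1938 genes (14.1%), below them for 1353 (9.86%) and above them for 585 (4.26%). The median log2 difference over all genes tested was -0.03, and 59.1% of genes were below 0. Rescaling all libraries to a common sum moved that median to -0.12 and the split of calls to 5 higher and 9 lower. Every log2 difference here is dGATA minus wild type on the log2(FPKM + 1) scale, which understates the difference of genes near or below 1 FPKM. The calls (higher and lower) were 3 and 3 without wild-type replicate 1, 2 and 3 without wild-type replicate 2, 2 and 5 without wild-type replicate 3, and 1 and 1 without dGATA replicate 3. All 10 called genes that are not small RNA features are described below, as are the 3 small RNA features.

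**Figure D1:**
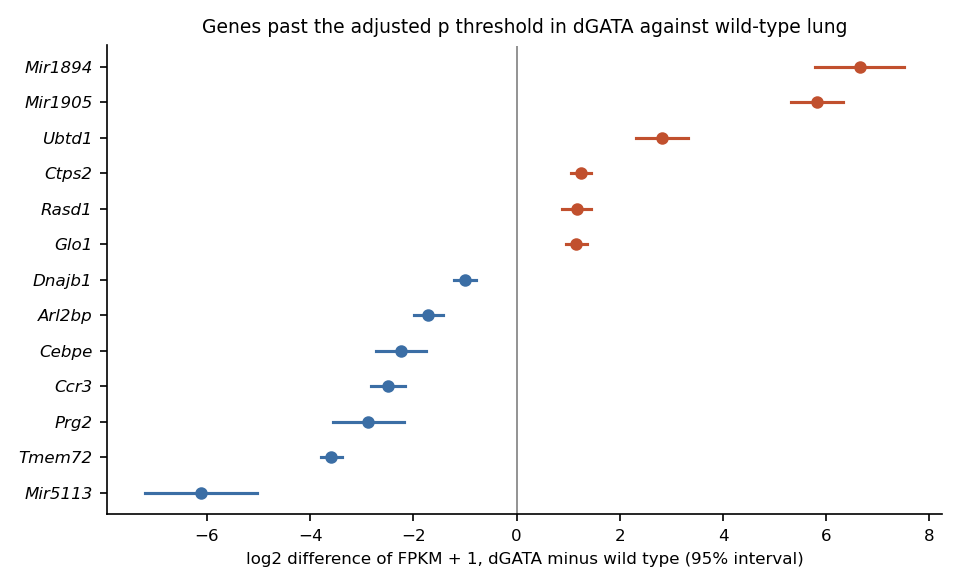
Log2 difference of FPKM + 1, dGATA minus wild type, with its 95% interval from limma, for the 13 genes with an adjusted p under 0.05. Small RNA features have the widest differences, from -6.11 for Mir5113 to 6.65 for Mir1894, and Dnajb1 has the smallest, at -1.01.

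Gata1, the gene to which the field's use of the name refers, was examined first. Wild-type lungs had Gata1 at 1.65, 1.23 and 0.963 FPKM, and dGATA lungs had it at 0.126, 0.134 and 0.314 FPKM. All 3 dGATA values were below all 3 wild-type values, and the means differed 6.70-fold (1.28 ± 0.344 against 0.191 ± 0.106, SD, n = 3). Gata1 did not reach the level required for the fit, and its two-sided exact permutation p was 0.1, the smallest that 3 against 3 allows, or 0.547 after Benjamini-Hochberg adjustment over 93 listed genes below that level. The files give no value per exon or transcript, so no altered Gata1 RNA could be looked for.

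Other factors of the same precursors gave a mixed picture. Of 21 listed GATA factors and partners, 16 were tested, 1 was called lower and 0 higher by limma, 2 were lower and 1 higher at an unadjusted p under 0.05, and the median difference was -0.03, or 0.02 under median-of-ratios scaling. The called member was Cebpe, a C/EBP family factor needed for granulocytes to mature, at 5.45, 4.24 and 2.84 FPKM in wild type and at 0, 0.125 and 0.108 FPKM in dGATA lung. Cebpe passed the filter only through wild type, so a difference was already implied, and it is also on the eosinophil list below. No dGATA lung came near the lowest wild-type value, and Cebpe fell by 2.23 on the log2 scale (SE 0.201, adjusted p = 0.0271, limma). The call was lost without wild-type replicate 1 (adjusted p = 0.0727), wild-type replicate 2 (0.246) or any 1 dGATA library (0.073 to 0.209), while the log2 difference stayed between -2.43 and -2.06. Gfi1b, a repressor gene of megakaryocyte and erythroid cells, was below the level for the fit, at 0.429, 0.699 and 0.644 FPKM in wild type and 0, 0.159 and 0.0737 FPKM in dGATA lung. It was singled out after its values were seen. Its groups did not overlap (exact permutation p = 0.1). Gata2, a related factor also active in lung endothelium and mast cells, was 33.0, 28.8 and 36.2 FPKM in wild type and 61.7, 33.8 and 49.8 FPKM in dGATA lung, with overlapping groups (log2 0.52, adjusted p = 0.726). Nfe2, a partner factor of erythroid and megakaryocyte genes, was -0.64 on the log2 scale with groups that did not overlap, but was not called (adjusted p = 0.46).

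Genes of eosinophils included 3 of the 13 called genes. Of 26 listed eosinophil genes, 24 were in the tables and 19 were tested. Of these 3 were called lower and 0 higher by limma, and 6 were lower and 0 higher at an unadjusted p under 0.05. The groups of 6 did not overlap, all lower in dGATA lung. Among all genes tested 0.0510% were called lower, 6.84% had an unadjusted p under 0.05 in either direction, and 9.86% were lower without overlap. Ccr3, Prg2, Cebpe and Emr4 reached 1 FPKM only in the wild-type libraries, so their passing of the filter already implied a difference. The list's counts are a description only.

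Ccr3 encodes the eotaxin receptor of eosinophils (chr9:124021971-124031689, mm10). Wild-type lungs had Ccr3 at 5.69, 5.88 and 4.53 FPKM, against 0.0493, 0.252 and 0.0729 FPKM in dGATA lungs. The lowest wild-type lung was far above the highest dGATA lung, and the means differed 43.1-fold. Ccr3 fell by 2.50 on the log2 scale (SE 0.135, 95% interval -2.83 to -2.17, adjusted p = 0.00326, limma). It kept its call without each of 5 libraries and lost it narrowly without dGATA replicate 3 (adjusted p = 0.0534).

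Prg2, which encodes eosinophil major basic protein (chr2:84980461-84983632), was 12.2, 10.9 and 6.00 FPKM in wild type and 0.0794, 0.677 and 0.529 FPKM in dGATA lung. Wild-type replicate 3 was the lowest of its group and still above every dGATA lung, and the means differed 22.6-fold. Prg2 fell by 2.88 on the log2 scale (SE 0.285, adjusted p = 0.0427, limma). The call held without wild-type replicate 3 (adjusted p = 0.0393) and was lost without wild-type replicate 1 (0.185), wild-type replicate 2 (0.332) or any 1 dGATA library (0.0742 to 0.229).

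Eosinophil peroxidase, encoded by Epx, had 0.262, 0.388 and 0.228 FPKM in wild-type lungs, while every dGATA lung listed it at 0. Even the wild-type level was near the lower end of the tables, and the exact permutation p was 0.1. Alox15, a 12/15-lipoxygenase gene of eosinophils and some macrophages, was 33.8, 26.6 and 17.8 FPKM in wild-type lung and 0.753, 2.68 and 4.23 FPKM in dGATA lung. Its groups did not overlap and its means differed 10.2-fold, but Alox15 was not called (log2 -3.02, SE 0.428, adjusted p = 0.175, limma). Emr4, now named Adgre4, an adhesion receptor gene of myeloid cells, was 2.17, 2.26 and 1.88 FPKM in wild-type lung and 0.705, 0.561 and 0.647 FPKM in dGATA lung (log2 -0.92, adjusted p = 0.0872). The groups of Emr4 did not overlap, but it passed the filter only through wild type, so a difference was already implied. It missed the threshold.

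Most other genes used as eosinophil markers overlapped between the groups. Siglec5, the tables' name for Siglecf, a receptor of eosinophils and alveolar macrophages, was 8.25, 8.17 and 6.998 FPKM in wild type and 7.08, 4.498 and 6.69 FPKM in dGATA lung (log2 -0.33, 95% interval -0.73 to 0.07). Il5ra, the interleukin 5 receptor gene, was 1.38, 1.33 and 0.783 FPKM against 0.181, 0.929 and 1.89 FPKM, with dGATA replicate 3 the highest of all 6. Ear1 and Ear2, ribonuclease genes of the eosinophil-associated family, overlapped between groups (log2 -0.00 and -0.43), and their near-identical copies may share reads. Ear6, of the same family, did not overlap (5.27, 3.29 and 5.70 against 1.16, 2.96 and 3.19 FPKM, adjusted p = 0.714). The median difference over the 19 tested members was -0.33 with all libraries and 0.01 without dGATA replicate 1, which was the lowest of the 6 libraries for 16 of them. Over all genes tested, dGATA replicate 1 was the lowest of the 6 for 30.6%.

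**Figure D2:**
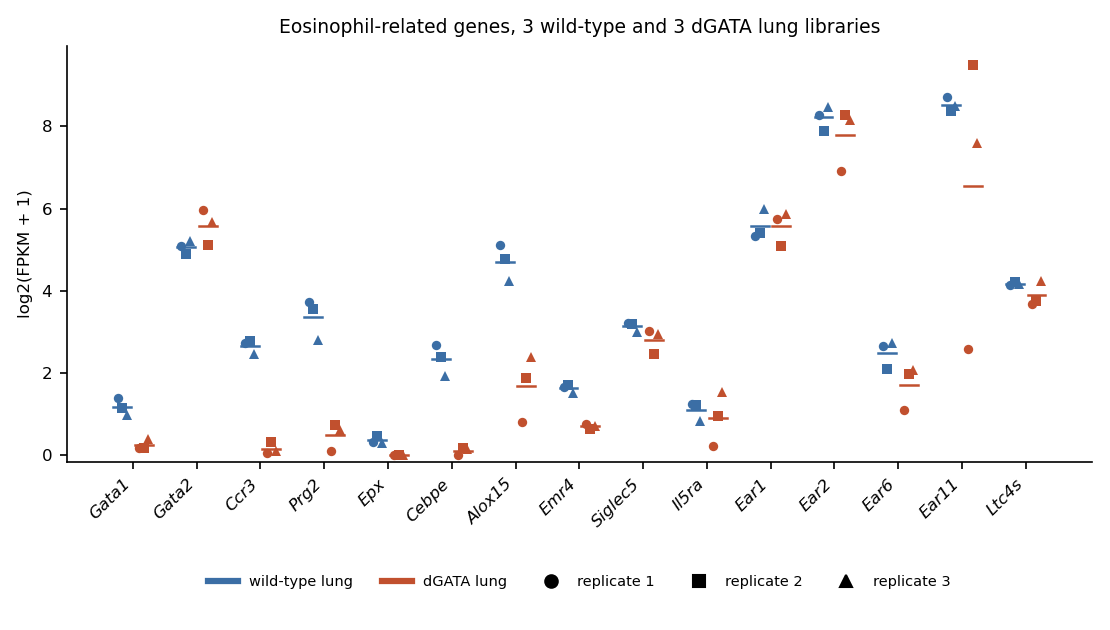
Log2(FPKM + 1) of 15 eosinophil-related genes in each of the 3 wild-type (blue) and 3 dGATA (red) lung libraries. Marker shapes are replicate numbers and short bars are group means. The groups stand apart for Gata1, Ccr3, Prg2, Epx, Cebpe, Alox15, Emr4 and Ear6 and overlap for Gata2, Siglec5, Il5ra, Ear1, Ear2, Ear11 and Ltc4s.

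The 250 bases before the start site are shown for Ccr3, the eosinophil gene with the smallest adjusted p, from the RefSeq promoter table of GRCm38.p6. Capitals mark matches to the GATA motif, spelled as A or T, then GATA, then A or G, and searched on both strands. The Ccr3 window (chr9:124021721-124021970, plus strand) held 2 matches, whose first bases lay 64 and 30 bases before the start. The window of Gata1 (chrX:7967911-7968160, minus strand), whose sequence is not shown, held 0. The windows of Epx, another eosinophil gene, and of Gata2 also held 0. Prg2, Cebpe and Alox15 had no window to search. Of the 32851 windows of this length in the table, 26.5% held at least 1 match, so a match is a description and not a binding site.
Ccr3: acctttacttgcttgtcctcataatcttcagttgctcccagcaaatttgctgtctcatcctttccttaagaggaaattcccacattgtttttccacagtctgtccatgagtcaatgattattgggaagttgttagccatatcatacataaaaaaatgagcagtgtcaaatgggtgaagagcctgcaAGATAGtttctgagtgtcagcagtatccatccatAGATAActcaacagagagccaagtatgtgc

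A second set of called genes has no textbook tie to eosinophils. Tmem72, a transmembrane protein gene (chr6:116692725-116716758), had 10.7, 11.5 and 10.8 FPKM in wild-type lungs, while every dGATA lung listed it at 0. It had the smallest adjusted p of all genes (log2 -3.59, SE 0.0872, adjusted p = 8.49e-05, limma) and kept its call without each library in turn (adjusted p from 0.000243 to 0.00496). Tmem72 passed the filter only through the wild-type libraries, so a difference was already implied, and a listed 0 can be a failed estimate. Its 3 dGATA values were identical, so leaving out any 1 of them could not change the log2 difference.

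Ubtd1, a ubiquitin domain protein gene (chr19:41981763-42034641), differed in the opposite direction, with 1.11, 0.729 and 0.778 FPKM in wild type and 8.68, 15.5 and 13.2 FPKM in dGATA lung. Every dGATA lung was several times the highest wild-type lung, and Ubtd1 rose by 2.82 on the log2 scale (14.3-fold in means, SE 0.21, adjusted p = 0.0104). Ctps2, a CTP synthase gene of pyrimidine supply (chrX:162901560-163034541), was 2.09, 2.20 and 2.29 FPKM in wild-type lung and 6.76, 6.59 and 6.46 FPKM in dGATA lung. The values within each group differed by far less than the groups, and Ctps2 rose by 1.25 on the log2 scale (SE 0.0815, adjusted p = 0.00815). S100g, a calcium-binding protein gene that lies within the span of Ctps2, was 97.0, 97.5 and 107 FPKM in wild-type lung and 222, 167 and 178 FPKM in dGATA lung, and was not called (adjusted p = 0.175). The sources used here do not say how reads in the overlap were assigned.

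Arl2bp, which encodes a binding partner of the small GTPase ARL2 (chr8:94666755-94674423), was 60.1, 58.4 and 68.0 FPKM in wild type and 19.98, 15.7 and 19.4 FPKM in dGATA lung. Its groups were far apart, and Arl2bp fell by 1.71 on the log2 scale (3.39-fold in means, SE 0.118, adjusted p = 0.00958). Glo1, the glyoxalase that clears methylglyoxal (chr17:30592862-30612659), was 30.7, 28.4 and 27.5 FPKM in wild type and 70.3, 64.1 and 62.9 FPKM in dGATA lung. Glo1 rose by 1.16 on the log2 scale (2.28-fold in means, SE 0.085, adjusted p = 0.0104), with no overlap. Rasd1, a small GTPase gene induced by dexamethasone (chr11:59963181-59964942), was 2.37, 2.47 and 1.83 FPKM in wild-type lung and 6.79, 5.80 and 6.06 FPKM in dGATA lung. Rasd1 rose by 1.17 on the log2 scale (SE 0.116, adjusted p = 0.0427), also with no overlap.

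Ubtd1, Ctps2, Arl2bp and Glo1 kept their calls without dGATA replicate 1 or dGATA replicate 2. They lost them without any 1 wild-type library or dGATA replicate 3, with adjusted p from 0.0613 to 0.133. Rasd1 lost its call without any 1 library (0.0755 to 0.237). No log2 difference of these genes changed direction. Genes within 100 kb were examined around each of the 13 called genes. None of the tested neighbours was called, from 3 around Tmem72, Ccr3, Ctps2 and Glo1 to 17 around Mir1894, against 0.0947% of all genes. Tmem72, Mir1894, Ccr3, Ctps2, Glo1, Mir5113, Ubtd1 and Rasd1 each had 1 neighbour at an unadjusted p under 0.05 by limma. The other called genes had 0, and the share of all genes was 6.84%. The largest neighbour difference was 0.89, for S100g. Both groups are labelled BALB/c, and the FPKM tables hold no alleles.

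The 3 small RNA features past the threshold were Mir1905, Mir1894 and Mir5113. Mir1905 was listed at 0 in all 3 wild-type lungs and was 56.6, 41.0 and 74.7 FPKM in dGATA lungs. Mir1894 was listed at 0 in wild type and was 65.7, 181 and 82.0 FPKM in dGATA lungs. Mir5113 was 31.1, 91.1 and 111 FPKM in wild type and at 0 in dGATA lungs to the precision used. Each feature was listed above 0 in every library of 1 group and at 0 in the other, where a 0 can be a failed estimate, and it passed the filter only through the group with values, so its call was already implied in part.

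The libraries were made with an mRNA kit, so these values do not measure mature microRNA, and each feature lies within the span of a longer gene. That gene is Mex3a for Mir1905, Ppp1r10 for Mir1894 and Tnrc6b for Mir5113. Ppp1r10, a protein phosphatase subunit gene, was 14.2 to 15.9 FPKM in wild type and 12.8 to 15.4 FPKM in dGATA lung, and Tnrc6b, a gene of microRNA silencing complexes, was 5.22 to 5.71 against 3.95 to 4.75 FPKM. Mex3a, an RNA-binding protein gene, was 0.390 to 0.468 against 0.271 to 0.345 FPKM. Ppp1r10 overlapped between groups, while Tnrc6b and Mex3a were lower in dGATA lung without overlap. Tnrc6b thus lay in the direction of Mir5113 but was not called (log2 -0.24, adjusted p = 0.721, limma). Mex3a lay opposite to Mir1905 and was below the level for the fit. Of the features, Mir1905 kept its call without each library in turn (adjusted p from 0.000341 to 0.0124). Mir1894 lost its call without dGATA replicate 3 (0.0534), and Mir5113 lost its call without wild-type replicate 2 (0.111), dGATA replicate 2 (0.0677) or dGATA replicate 3 (0.131). The mature sequences that the annotation places in these features are given below from RefSeq, GRCm38.p6, with the seed, bases 2 to 8, in capitals. The 4 seeds are all different.
mmu-miR-1905: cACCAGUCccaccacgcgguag
mmu-miR-1894-5p: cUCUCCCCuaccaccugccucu
mmu-miR-1894-3p: gCAAGGGAgagggugaagggag
mmu-miR-5113: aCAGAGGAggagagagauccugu

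Of the heat shock genes, Dnajb1 alone was called. Dnajb1, an HSP40 co-chaperone gene (chr8:83608175-83611903), was 49.4, 42.6 and 44.2 FPKM in wild-type lung and 20.9, 21.9 and 23.5 FPKM in dGATA lung. The groups were tight and apart, and Dnajb1 fell by 1.01 on the log2 scale (2.05-fold in means, SE 0.0901, adjusted p = 0.0271, limma). It lost its call without any 1 library (adjusted p from 0.057 to 0.197), with log2 differences between -1.05 and -0.94.

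A list of 26 heat shock and chaperone genes was drawn up after values had been seen, so its counts describe these libraries and support nothing. All 26 were tested and had log2 differences below 0, against 59.1% of all genes. By limma 1 was called lower and 0 higher, 21 were lower at an unadjusted p under 0.05, and the groups of 21 did not overlap. The shares of all genes tested were 0.0510% called lower, 6.84% at an unadjusted p under 0.05 in either direction, and 9.86% lower without overlap. The median difference was -0.57, and it was -0.72 without dGATA replicate 1. Hspa1b, an inducible HSP70 gene, was 39.1, 34.8 and 23.6 FPKM in wild-type lung and 4.37, 9.45 and 9.12 FPKM in dGATA lung (log2 -1.99, adjusted p = 0.233). Its near-identical copy Hspa1a was 35.5, 28.4 and 21.0 against 4.18, 8.85 and 8.34 FPKM (log2 -1.88, adjusted p = 0.247), and reads may be split between the copies. Serpinh1, the collagen chaperone HSP47, was 200, 244 and 225 FPKM in wild type and 135, 132 and 131 FPKM in dGATA lung (log2 -0.74, adjusted p = 0.175). The dGATA values of Serpinh1 were nearly equal to each other. Hsph1, an HSP110 gene, was also lower without overlap (log2 -1.14, adjusted p = 0.395).

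Rbm3 and Cirbp, which encode RNA-binding proteins induced by mild cold, lay in the other direction. Rbm3 was 23.8, 20.1 and 21.1 FPKM in wild type and 31.9, 32.0 and 30.5 FPKM in dGATA lung (log2 0.52, adjusted p = 0.268). Cirbp was 21.4, 23.0 and 22.2 against 35.4, 29.2 and 33.2 FPKM (log2 0.53, adjusted p = 0.313). Neither overlapped between groups and neither was called. Both were chosen after their values were seen. Among 20 tested immediate early and stress genes, the 4 with an unadjusted p under 0.05 were Hspa1a, Hspa1b, Dnajb1 and Hsph1, and of these Dnajb1 alone was called, while Fos and Jun overlapped between groups (log2 0.16 and 0.05). The time from death to freezing and the temperature of the tissue are not stated in the labels, and their part in these values was not tested.

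**Figure D3:**
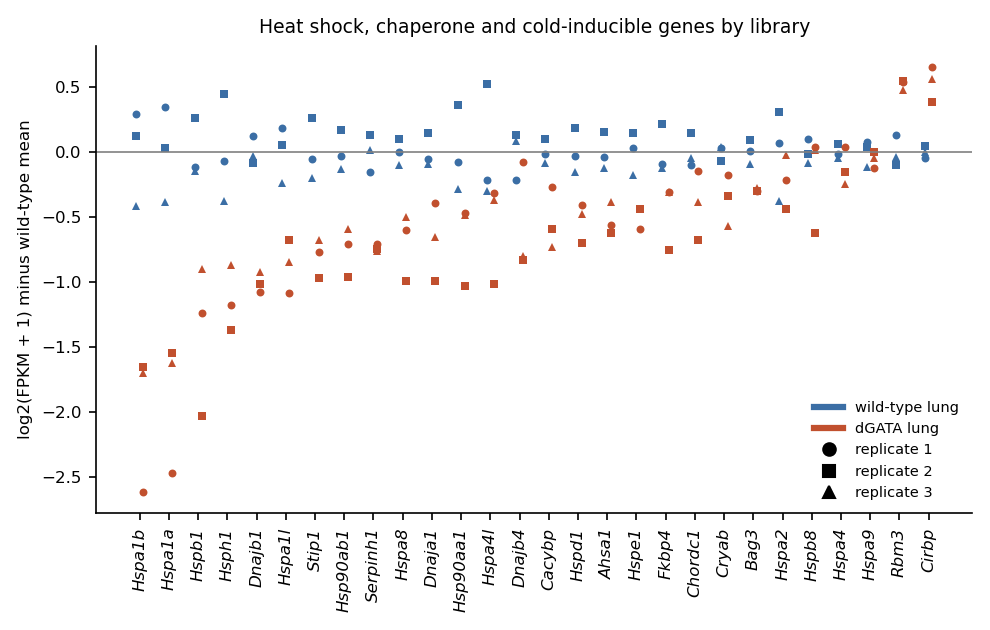
Log2(FPKM + 1) minus the wild-type mean for 26 heat shock and chaperone genes and 2 cold-inducible genes in each library (blue wild type, red dGATA, shapes by replicate). The red points lie below the blue points for 21 of the 26 and above them for Rbm3 and Cirbp.

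The promoters of 2 of these genes are shown as examples from the list, neither of them called, from the RefSeq table of GRCm38.p6 and ending at the base before the start site. Capitals mark GAANNTTC or TTCNNGAA, paired repeats as found in heat shock elements, where N is any base. Both are palindromes, so 1 match counts for both strands. Hspa1a (chr17:34972157-34972406, minus strand) held 1 match, with its first base 104 bases before the start, and Hspb1, a small heat shock protein gene (chr5:135887669-135887918, plus strand), held 2, at 117 and 97 bases. Of all windows of this length, 12.8% held at least 1. Hspb1 itself was 246, 318 and 240 FPKM in wild type and 112, 64.5 and 142 FPKM in dGATA lung (adjusted p = 0.413); it was picked after its values were seen. Hspa1b and Hsph1 held 1 match in each window, and the windows of Dnajb1, Serpinh1 and Stip1, which encodes a chaperone adaptor, held none.
Hspa1a: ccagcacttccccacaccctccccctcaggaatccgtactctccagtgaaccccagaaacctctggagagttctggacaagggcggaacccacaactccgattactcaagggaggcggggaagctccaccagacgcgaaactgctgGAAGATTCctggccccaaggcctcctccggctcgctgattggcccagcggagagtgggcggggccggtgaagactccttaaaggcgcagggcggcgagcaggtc
Hspb1: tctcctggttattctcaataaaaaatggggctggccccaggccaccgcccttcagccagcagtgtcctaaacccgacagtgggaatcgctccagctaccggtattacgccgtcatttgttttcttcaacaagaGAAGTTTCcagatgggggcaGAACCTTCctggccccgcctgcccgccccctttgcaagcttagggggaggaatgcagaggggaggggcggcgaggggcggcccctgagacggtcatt

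Several uncalled genes had large differences without overlap and are given as values only. Oas1a, an antiviral oligoadenylate synthetase gene, was 0.135, 0.138 and 0.0356 FPKM in wild-type lung and 4.29, 13.9 and 21.2 FPKM in dGATA lung (log2 3.45, adjusted p = 0.175). Its neighbour Oas1g was 0.0911, 0.0359 and 0.0623 against 2.02, 7.42 and 12.04 FPKM, and Oas1b was 0.918, 0.704 and 0.588 against 3.58, 4.80 and 7.78 FPKM (adjusted p = 0.364 and 0.148). Wild-type Oas1a and Oas1g were near the lower end of the tables in all 3 libraries, and the 3 genes passed the filter only through the dGATA libraries, so a difference was already implied. These genes are close copies on chromosome 5, so reads may be split between them. Of 24 interferon-response genes tested, Oas1a among them, 0 were called by limma, 1 was higher and 0 were lower at an unadjusted p under 0.05, and that member was Oas1a. The list's median was 0.02, -0.06 after rescaling to a common sum and 0.39 without dGATA replicate 1, which was the lowest of the 6 libraries for 22 of the 24. Without dGATA replicate 1, Oas1a and Oas1g passed the threshold (adjusted p for Oas1a = 0.00355).

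H2-Q7, a class I MHC gene of the Q region, was 36.0, 34.5 and 40.9 FPKM in wild-type lung and 0.582, 10.1 and 7.13 FPKM in dGATA lung (log2 -2.86, adjusted p = 0.502; 0.0267 without dGATA replicate 1). The 7 other Q region genes tested overlapped between groups, with H2-Q9 at 50.4, 25.8 and 34.6 against 34.9, 113 and 78.1 FPKM. H2-Q7 (chr17:35439155-35443773) and H2-Q9 (chr17:35439167-35443770) are listed at nearly the same position. How reads were divided between these entries is not known. Members of this family are near-identical, and their values are uncertain.

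Cyp4f18, a leukotriene hydroxylase gene of neutrophils, was 22.2, 16.9 and 11.8 FPKM in wild-type lung and 1.85, 4.35 and 3.51 FPKM in dGATA lung (log2 -2.09, adjusted p = 0.175). Retnlg, a resistin-like gene of neutrophils, was 228, 209 and 144 against 8.47, 88.4 and 41.0 FPKM (adjusted p = 0.614). Neither overlapped, while S100a9, another neutrophil gene, was 49.9, 85.8 and 62.8 against 76.9, 99.8 and 106 FPKM. Of 15 neutrophil genes tested 0 were called by limma. At an unadjusted p under 0.05 by limma 1 was higher and 2 were lower, beside 6.84% of all genes in either direction. The higher member was Mmp8, at 0.913, 1.24 and 1.14 against 2.20, 1.89 and 2.21 FPKM, without overlap (adjusted p = 0.387). The list's median was 0.17 (0.36 without dGATA replicate 1). Glp1r, the receptor of glucagon-like peptide, was 3.45, 3.82 and 2.22 FPKM in wild type and 7.27, 8.47 and 8.02 FPKM in dGATA lung (log2 1.12, adjusted p = 0.191). Sfi1, a centrosome gene, was 20.9, 17.4 and 21.8 against 34.7, 84.4 and 60.1 FPKM, and Pisd-ps1, a pseudogene beside it on chromosome 11, was 34.4, 31.7 and 35.9 against 41.3, 77.9 and 65.8 FPKM. Neither of the last pair was called (adjusted p = 0.413 and 0.574), and repeated copies of both may share reads. Just short of the threshold, and chosen after values were seen, were Gapt, Pira1 and Fgfr4, all lower in dGATA lung without overlap. Gapt, a membrane adaptor gene of haematopoietic cells, was 6.02, 4.53 and 3.89 against 0.136, 0.835 and 0.423 FPKM (adjusted p = 0.0652, limma). Gapt passed the filter only through the wild-type libraries, so a difference was already implied. Pira1 is a paired immunoglobulin-like receptor gene with close copies (0.0652), and Fgfr4 is a fibroblast growth factor receptor gene (0.0932).

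Type 2 response genes were spread widely among the dGATA lungs. Retnla, the resistin-like molecule alpha gene of alternatively activated macrophages and epithelium, was 11280, 11040 and 8680 FPKM in wild-type lung and 656, 25230 and 10860 FPKM in dGATA lung. Replicate 1 was far below and replicate 2 far above the wild-type range, with replicate 3 inside it (log2 -0.86, 95% interval -3.99 to 2.26, adjusted p = 0.942). Chi3l3, now Chil3, a chitinase-like gene, was 3920, 2833 and 3474 against 166, 6620 and 3322 FPKM. Arg1, the arginase gene, was 39.8, 33.6 and 29.8 against 1.19, 228 and 10.4 FPKM.

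The same order ran through the list. Of 18 alternative activation genes, all tested, dGATA replicate 1 was the lowest of the 6 libraries for 17 and dGATA replicate 2 the highest for 16, and both held for 16. Both held for 13.4% of all genes tested, and dGATA replicate 2 was the highest of the 6 for 22.7%. The list's summed level was 15330 to 18600 FPKM in wild type and 1839, 38160 and 17520 FPKM in dGATA replicates 1, 2 and 3. By limma 0 members were called, and 1 was higher and 1 lower at an unadjusted p under 0.05, beside 6.84% of all genes in either direction. The higher member was Socs2, at 35.6, 33.0 and 36.5 FPKM in wild type and 47.1, 41.45 and 42.5 FPKM in dGATA lung. The lower was Cd209a, at 11.9, 17.4 and 10.8 against 5.51, 6.57 and 7.78 FPKM. Neither overlapped between groups. The median difference was -0.48 with all libraries and 0.39 without dGATA replicate 1, so its direction rested on 1 library. For Retnla, Chi3l3 and Arg1 the log2 difference without dGATA replicate 1 was 0.69, 0.47 and 0.54.

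Chemokine genes followed the same order. Of 29 listed eotaxins and other chemokine genes, 27 were tested and both positions held for 20. Ccl11, the eotaxin 1 gene, was 76.6, 72.3 and 56.9 FPKM in wild-type lung and 4.64, 97.1 and 31.2 FPKM in dGATA lung, and Ccl24, the eotaxin 2 gene, was 9.997, 5.91 and 5.45 against 1.35, 29.3 and 4.07 FPKM. The dGATA values of both enclosed the wild-type range (adjusted p = 0.835 and 0.986). Ccr2, the receptor of inflammatory monocytes, was the only tested member of this list, which does not hold Ccr3, whose groups did not overlap, at 15.7, 20.3 and 17.5 against 6.99, 13.6 and 11.97 FPKM (adjusted p = 0.649). By limma 0 were called and 1, Ccr2, was lower at an unadjusted p under 0.05. Cell cycle genes held both positions for 24 of 28 tested and T cell genes for 17 of 21, with medians of -0.02 and -0.02 that both turned to 0.02 under median-of-ratios scaling and to 0.25 and 0.27 without dGATA replicate 1.

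Cytokine genes of the type 2 response were low. Il4 was 1.24, 1.83 and 1.67 FPKM in wild type and 0, 0.770 and 0.699 FPKM in dGATA lung. All 3 dGATA values were below wild type (log2 -0.83, adjusted p = 0.583), and Il4 passed the filter only through wild type. Il5 and Il13 were below the filter, at 0.232 to 0.367 and 0.553 to 0.866 FPKM in wild type and 0.152 to 0.294 and 0 to 1.63 FPKM in dGATA lung (exact permutation p = 0.6 and 1.0). Il33, the epithelial alarmin, was 49.8, 61.7 and 60.4 against 33.0, 88.4 and 64.6 FPKM, and its receptor gene Il1rl1, encoding ST2, was 4.52, 4.47 and 3.62 against 1.19, 2.63 and 3.50 FPKM. Il33 overlapped between groups and Il1rl1 did not (adjusted p = 0.998 and 0.723). Of 15 type 2 cytokine and receptor genes tested, 0 were called by limma, and 0 were higher and 2 lower at an unadjusted p under 0.05.

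**Figure D4:**
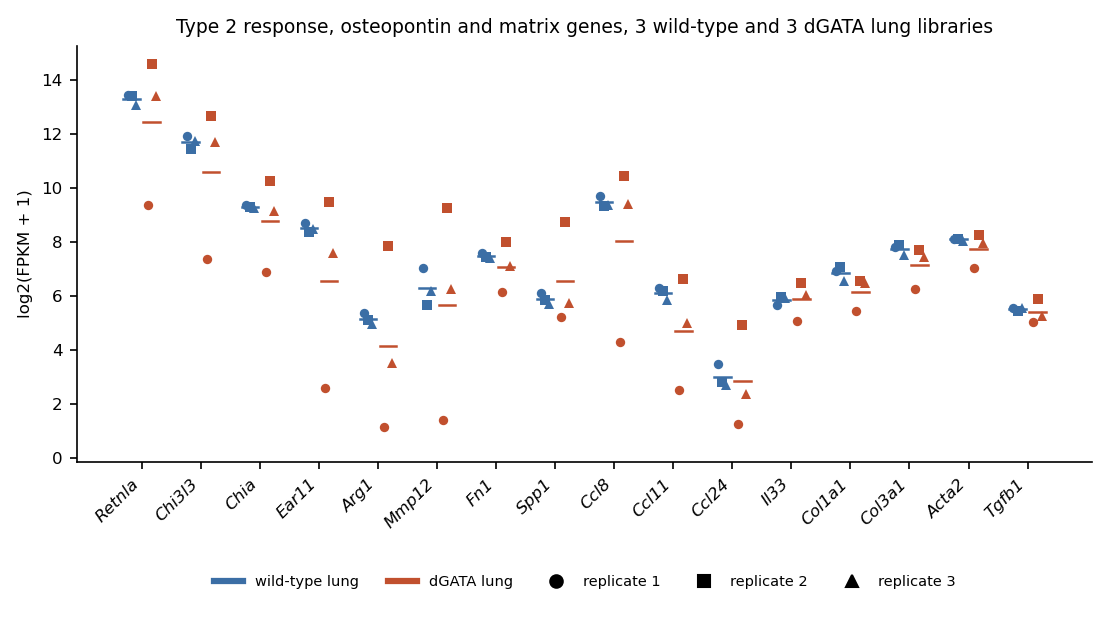
Log2(FPKM + 1) of 16 type 2 response, osteopontin and matrix genes in each library (blue wild type, red dGATA, shapes by replicate, bars group means). For each gene from Retnla to Ccl24, and for Il33, dGATA replicate 1 is the lowest and dGATA replicate 2 the highest point, as for Retnla at 656 and 25230 FPKM.

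The study as a whole concerns amphiregulin, osteopontin and airway fibrosis, and their genes showed no called difference here. Spp1, the osteopontin gene, was 68.4, 57.0 and 50.7 FPKM in wild-type lung and 36.6, 423 and 52.3 FPKM in dGATA lung. The higher dGATA mean came from replicate 2 alone, and the log2 difference was 0.68 (95% interval -1.44 to 2.79, adjusted p = 0.933, limma), turning to -0.40 without that library. Areg, the amphiregulin gene, was 1.77, 2.67 and 1.71 against 2.68, 1.34 and 2.53 FPKM (log2 0.05, 95% interval -0.48 to 0.58), and Egfr, its receptor gene, was 6.79, 7.11 and 6.68 against 6.88, 5.36 and 4.86 FPKM (log2 -0.24, 95% interval -0.55 to 0.06). Both overlapped between the groups. Of 11 osteopontin and receptor genes tested 0 were called by limma and 1, the integrin gene Itgb5, was lower at an unadjusted p under 0.05; of 8 EGF family genes 0 were called and 0 passed an unadjusted p under 0.05.

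Collagen, matrix and smooth muscle genes lay mostly below 0 without reaching the threshold. Of 25 fibroblast and collagen genes, 21 were below 0, 0 were called by limma, and 6 were lower at an unadjusted p under 0.05. The groups of 6 did not overlap, all lower, against 9.86% of all genes tested, and 59.1% of all genes were below 0. The median difference was -0.39, or -0.22 without dGATA replicate 1. Col1a1, a type I collagen gene, was 122, 133 and 92.2 FPKM in wild-type lung and 42.1, 93.7 and 87.9 FPKM in dGATA lung (log2 -0.69, 95% interval -1.48 to 0.09, adjusted p = 0.751). Its partner chain Col1a2 was 149, 160 and 129 against 62.4, 114 and 102 FPKM (adjusted p = 0.654). The groups overlapped for Col1a1 and not for Col1a2, and dGATA replicate 1 was the lowest for both. Col3a1, of type III collagen, was 224, 238 and 182 against 76.2, 207 and 173 FPKM, with overlap.

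Of 32 matrix and fibrosis factors tested, 28 were below 0, 0 were called by limma, 8 were lower at an unadjusted p under 0.05, 9 were lower without overlap, and the median was -0.20 (-0.15 without dGATA replicate 1), beside the same shares of all genes. Mmp2, a gelatinase gene of fibroblasts, was 78.4, 69.3 and 76.3 FPKM in wild-type lung and 35.8, 58.6 and 49.7 FPKM in dGATA lung (log2 -0.65, adjusted p = 0.566). Timp2, its inhibitor gene, was 161, 165 and 182 against 141, 140 and 122 FPKM, with all dGATA values below wild type (adjusted p = 0.614). Fn1, the fibronectin gene, was 194, 174 and 171 against 69.6, 253 and 138 FPKM, and Tgfb1 was 46.3, 42.0 and 46.2 against 32.1, 58.4 and 36.9 FPKM. Both of the last genes overlapped. All 14 smooth muscle genes tested were below 0, with a median of -0.40 (-0.20 without dGATA replicate 1); 0 were called, 4 were lower at an unadjusted p under 0.05, and 4 were lower without overlap. Acta2, the smooth muscle actin gene, was 277, 279 and 265 against 132, 304 and 248 FPKM, and Mylk, the myosin light chain kinase gene, was 58.0, 64.3 and 61.1 against 49.2, 43.2 and 47.2 FPKM. Only Mylk of this pair had groups that did not overlap (adjusted p = 0.443).

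Epithelial lists varied in direction. All 18 alveolar type 2 genes, 12 of 13 club cell genes and 16 of 17 ciliated cell genes were above 0, with medians of 0.19, 0.32 and 0.22. Of 15 alveolar type 1 genes, 7 were below and 8 above 0 (median 0.01, or -0.23 without dGATA replicate 1), of 18 mucus and goblet cell genes 10 were below 0 (median -0.06, or 0.62 without that library), and all 7 squamous genes tested were below 0. In the first 3 of these lists 0 genes were called by limma, and 2, 0 and 1 were higher at an unadjusted p under 0.05. The medians of those 3 lists stayed above 0 after rescaling to a common sum (0.09, 0.22 and 0.12) and without dGATA replicate 1 (0.17, 0.20 and 0.31). Napsa, the aspartic protease of surfactant processing, was 260, 254 and 282 FPKM in wild type and 355, 299 and 333 FPKM in dGATA lung (adjusted p = 0.675). Cyp2f2, a club cell cytochrome P450 gene, was 760, 967 and 763 against 1796, 889 and 1158 FPKM, with overlap. All 33 cytosolic ribosomal protein genes were above 0 as well (median 0.17, 0 called by limma and 0 at an unadjusted p under 0.05), and this median was 0.06 after rescaling.

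**Figure D5:**
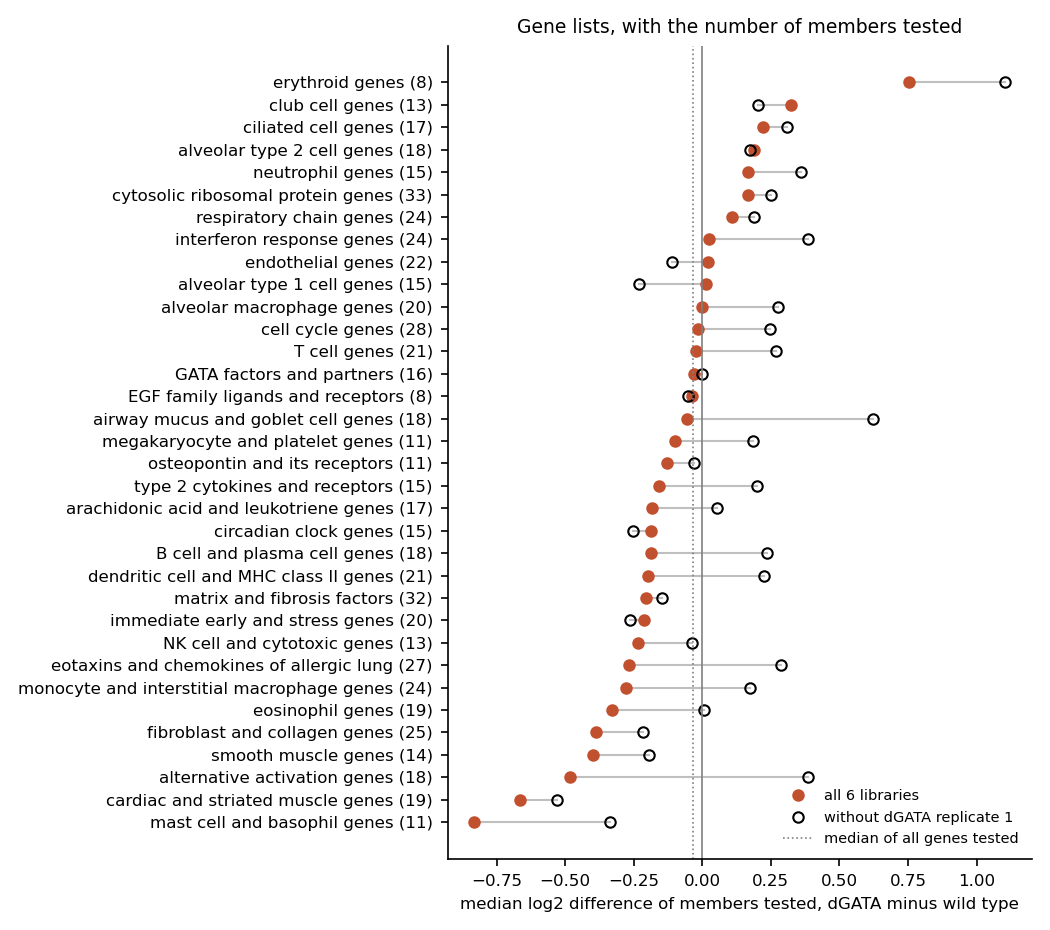
Median log2 difference, dGATA minus wild type, of the tested members of 34 gene lists (number tested in brackets) with all 6 libraries (filled) and without dGATA replicate 1 (open). The alternative activation list moves from -0.48 to 0.39, while the fibroblast, smooth muscle and cardiac lists stay below 0 and the alveolar type 2, club and ciliated lists above it.

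Mast cell and basophil genes, which GATA factors also drive, varied within both groups. Of 17 listed, 11 were tested, 9 were below 0, and 0 were called by limma. The 3 lower at an unadjusted p under 0.05 by limma were Mcpt4, Mcpt2 and Il4, and Il4 passed the filter only through wild type. Over all genes tested 6.84% had such a p in either direction and 59.1% were below 0. The list's median was -0.83 (-0.34 without dGATA replicate 1). Mcpt2, a mucosal mast cell protease gene, was 22.1, 28.9 and 6.44 FPKM in wild-type lung and 0, 10.4 and 1.46 FPKM in dGATA lung. Mcpt4, a connective tissue type protease gene, was 4.14, 3.43 and 1.77 against 0.961, 1.501 and 0.854 FPKM, with no overlap (adjusted p = 0.56). Wild-type replicate 3 was the lowest wild-type library for both. Kit, the stem cell factor receptor gene, was 39.7, 39.8 and 45.7 against 46.9, 33.3 and 37.6 FPKM.

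Genes of the erythroid and megakaryocyte lineages, which GATA1 also serves, had no called member. Of 8 tested erythroid genes 0 were called by limma and 0 passed an unadjusted p under 0.05. Hba-a1, a haemoglobin gene, was 795, 236 and 89.3 FPKM in wild-type lung and 150, 760 and 7192 FPKM in dGATA lung, so dGATA replicate 3 stood far above the rest. Of 11 megakaryocyte and platelet genes 0 were called, and 2 were higher and 3 lower at an unadjusted p under 0.05. The groups did not overlap for 2 higher and 3 lower genes, against 4.26% and 9.86% of all genes tested. Tubb1, the platelet tubulin gene, was 0.434, 0.802 and 0.471 against 1.09, 1.14 and 2.93 FPKM, whereas F5, coagulation factor V, was 3.50, 3.31 and 1.67 against 0.196, 0.530 and 0.552 FPKM. Neither gene overlapped between groups, and they lay in opposite directions (adjusted p = 0.679 and 0.268). Tubb1 passed the filter only through the dGATA libraries and F5 only through the wild-type libraries, so their lack of overlap was already implied.

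Single libraries stood out for genes of squamous epithelium, muscle or fat. Wild-type replicate 1 was highest for squamous genes, with Asprv1, a skin protease gene, at 107, 1.31 and 4.85 FPKM in wild type and 0.721, 0.744 and 1.31 FPKM in dGATA lung. Lgals7, a galectin of stratified epithelium, was 67.5, 1.59 and 4.45 against 0.256, 1.42 and 1.57 FPKM. The 22 squamous genes in the tables, listed after values were seen, summed to 2198, 24.3 and 110 FPKM in wild type and 19.3 to 25.2 FPKM in dGATA lung. The same library was highest for skeletal muscle genes, with Acta1 at 183, 15.4 and 12.5 against 7.45, 13.5 and 14.7 FPKM and Mylpf at 68.3, 2.45 and 2.24 against 1.83, 1.64 and 1.22 FPKM. Myl3, a slow and cardiac muscle light chain gene, was 41.3, 10.6 and 6.37 against 3.63, 1.11 and 3.79 FPKM. dGATA replicate 3 was highest for adipocyte genes, also listed after values were seen: Fabp4 was 89.98, 109 and 23.5 against 112, 121 and 466 FPKM, Pck1 was 2.82, 4.60 and 0.555 against 5.16, 6.28 and 28.3 FPKM, and Adig was 3.04, 2.25 and 0.721 against 3.53, 5.01 and 16.9 FPKM. None of these 8 genes was called, and the source of these transcripts, and their part in other results, was not tested.

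Airway mucus genes were low in 1 library of each group. Muc5ac, the gel-forming mucin gene, was 10.7, 11.3 and 1.88 FPKM in wild-type lung and 0.534, 15.1 and 19.6 FPKM in dGATA lung. Wild-type replicate 3 and dGATA replicate 1 were the low ones, and the log2 difference was 0.10 (SE 1.10, adjusted p = 0.992). Clca1, a goblet cell secreted protein gene, was 1.68, 1.03 and 0.584 against 0.760, 0.893 and 1.73 FPKM. Of 18 mucus and goblet cell genes tested 0 were called by limma, and 0 were higher and 1 lower at an unadjusted p under 0.05. That member was Alox15, described above among the eosinophil genes. Over all genes tested 6.84% had such a p in either direction.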

How the data were processed

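RNA of whole lung was sequenced after TRIzol extraction and a stranded mRNA kit, per the labels' protocols. The deposited FPKM values were made by the authors with Bowtie 0.12.8, TopHat 1.3.2 and Cufflinks 2.0.2 on mm10, per the submitters' processing notes; use of strand in the quantification was not stated. The FPKM tables give no read counts, and a listed 0 can be a failed estimate. FPKM were summed per gene symbol. Genes at 1 FPKM or more in 3 of 6 libraries were fitted on log2(FPKM + 1) with limma 3.58.1 (R 4.3.3, mean-variance trend, group as the only term), and p-values were adjusted by Benjamini-Hochberg over 13727 genes. Listed genes below that level were given a two-sided exact permutation test. The scripts were tested on simulated data. The members and gene lists were chosen with earlier results of these data known. Named are the question genes, every called gene, and the 10 uncalled genes per direction with the largest differences, no overlap and a higher group mean of at least 5 FPKM. Of the 4 members with the smallest p of each described list, some are named and others are not. Further genes were named for their role or after their values were seen, among them Gata1-related, Q region, chemokine, matrix and marker genes.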

Additional observations from a re-analysis of the deposited data

How the results depend on the processing

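Of the 253 values of the 13 called genes under the alternatives run, all kept their direction and 189 kept their call. Calls (higher, lower) were 19 and 77 with the spread shared over all 12 mouse libraries, 558 and 878 with array weights, a fit that did not converge and gave dGATA replicate 3 a weight of 5.25, and 4 and 4 at a mean of at least 5 FPKM, where 4 called genes were not tested. Without 1 library, higher calls ran from 1 to 7 and lower calls from 1 to 9, lowest without dGATA replicate 3, where only Tmem72 and Mir1905 remained, and highest without dGATA replicate 1. Replicate numbers did not pair the libraries: deviations of same-numbered libraries correlated at -0.286, -0.116 and -0.243, and with the number as a block 2 higher and 1 lower calls were left. Among uncalled genes, directions reversed under array weights for Ear1 (0.25), Il5ra (0.36), Ltc4s (0.025), Retnla (0.026) and Spp1 (-0.007). They reversed after rescaling to a common sum for Areg (-0.016), Clca1 (-0.026), Il33 (-0.091), Jun (-0.047) and Il13 (-0.0458 in mean FPKM), under quantile normalization for Il33 (-0.009), under median-of-ratios scaling for Ear1 (0.044), and with a pseudocount of 0.1 for Muc5ac (-0.12). Leaving out 1 library in turn gave log2 differences on both sides of 0 for Acta2 (-0.60 to 0.003), Areg (-0.071 to 0.26), Arg1 (-2.81 to 0.54), Ccl24 (-1.19 to 0.65), Chi3l3 (-2.18 to 0.47) and Clca1 (-0.17 to 0.22). The same held for Ear1 (-0.15 to 0.24), Ear11 (-3.43 to 0.023), Ear2 (-0.69 to 0.005), Fn1 (-0.87 to 0.055), Il33 (-0.30 to 0.40), Il5ra (-0.51 to 0.14) and Jun (-0.039 to 0.16). It also held for Kit (-0.23 to 0.012), Muc5ac (-0.59 to 1.29), Retnla (-1.94 to 0.69), Spp1 (-0.40 to 1.34) and Tgfb1 (-0.37 to 0.051), and in mean FPKM for Il13 (-0.43 to 0.39) and Il5 (-0.0652 to 0.00798). The cause was not tested. Read counts are unknown, so no counting interval was given, and the median 95% interval of a log2 difference was 0.617 wide.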
